A study of Mus musculus with 8 samples.

Results

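MicroRNA precursor genes were examined in undifferentiated spermatogonia, the germ cells of the testis that include the spermatogonial stem cells, after acute deletion of Tert, the gene of the telomerase reverse transcriptase. A gene was taken as a member when its symbol began with Mir and a digit or with Mirlet7, and 96 of the 14853 rows in the authors' deposited table did so. Rows with identical values were counted a single time, which left 84 genes. They comprise 83 hairpin genes or groups of identical hairpin copies, and Mir17hg, the long host transcript of the miR-17-92 cluster.

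The groups were 4 samples of genotype Tert CreER/flox:Rosa lsl-tdTomato/+, titled TERT-del, and 4 of genotype Tert CreER/+:Rosa lsl-tdTomato/+, titled TERT-hetero. CreER is a Cre recombinase that tamoxifen activates, placed here at the Tert locus. It occupies 1 Tert allele in both groups, so the controls are heterozygous at Tert, and it opposes a loxP-flanked allele in the deleted group and a normal allele in the controls. The lsl-tdTomato allele, a red fluorescent reporter that Cre switches on, was likewise shared. All mice were C57BL/6, 8 to 12 weeks old, received tamoxifen and were sampled on day 7, when MCAM-high, KIT-negative, tdTomato-positive cells were sorted. The labels do not say whether each sample came from a separate animal, so the p-values may measure technical spread only.

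The source was 1 table of the authors' DESeq2 comparison of the groups. It gives for each gene a normalized count averaged over all 8 libraries (the mean count), a log2 fold change of Tert CreER/flox over Tert CreER/+ with its standard error (SE), a Wald test and a Benjamini-Hochberg adjusted p over all rows. Values per library were not used here, so the spread between samples is known only through the SE. The direction was read from the name of the table, flox against WT, although the labels hold no wild-type group. The authors' deposited table put Tert itself at 0.29 (SE 0.26, adjusted p 0.595). Because the sources used here do not give the exons that Cre removes, that value checks neither the deletion nor the sign.

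A microRNA gene is transcribed as a long primary transcript with a hairpin. In the nucleus the Microprocessor, made of the nuclease Drosha and its partner Dgcr8, cuts the hairpin out, exportin 5 carries it to the cytoplasm, and Dicer cuts it to a short duplex. An Argonaute protein keeps 1 strand and uses its seed, bases 2 to 8, to pair with target messenger RNAs. Mirtrons bypass Drosha, because splicing releases the whole intron as the hairpin. Some microRNAs come from small nucleolar RNAs (snoRNAs), which guide chemical modification of ribosomal RNA, or from scaRNAs, their counterparts in Cajal bodies. Dicer and Dgcr8 are needed in mouse germ cells for normal spermatogenesis. The libraries were prepared from total RNA and not by small RNA cloning, so reads that fall on a hairpin can come from a primary transcript, a host gene or another small RNA that shares the bases.

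The sequences behind the called genes and their classes follow, from RefSeq on GRCm38.p6, written 5′ to 3′. A hairpin sequence was matched for 65 of the 96 rows and a mature sequence for 69. The mature sequences of the 5 genes that passed an adjusted p of 0.05 are shown first, with the seed in capitals.
mmu-miR-5121: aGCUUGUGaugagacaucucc
mmu-miR-6236: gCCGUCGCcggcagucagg
mmu-miR-6240: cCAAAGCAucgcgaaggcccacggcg
mmu-miR-3069-5p: uUGGCAGUcaagauauuguuuagc
mmu-miR-3069-3p: uUGGACACuaaguacugccaca
mmu-miR-677-5p: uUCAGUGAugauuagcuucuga
mmu-miR-677-3p: gAAGCCAGaugccguuccugagaagg

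None of these seeds was shared with another mature sequence matched here. Over the 69 member rows with a mature sequence, 94 mature names carried 91 distinct seeds, and 3 seeds occurred under 2 names each. No mature sequence was matched for the Mir466, Mir467 and Mir669 families, so seeds shared among them are not counted. The shared seeds were AUCAGGG and AUUUAGA in the miR-465b and miR-465c pair of the X chromosome, and UUGCUUC in miR-686 and miR-7231-3p. The pairs are printed because their genes can be set beside each other as members of a seed family.
mmu-miR-465b-5p: uAUUUAGAauggugcugaucug
mmu-miR-465c-5p: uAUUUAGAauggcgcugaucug
mmu-miR-465b-3p: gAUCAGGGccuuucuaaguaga
mmu-miR-465c-3p: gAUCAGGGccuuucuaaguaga
mmu-miR-686: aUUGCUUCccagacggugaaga
mmu-miR-7231-3p: cUUGCUUCuuuguuuccccagaa

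Hairpins that overlap an annotated snoRNA or scaRNA on their own strand made up the class with the most called genes. Their sequences are shown with the stretch that GENCODE M21 annotates as snoRNA or scaRNA in capitals.
Mir5121: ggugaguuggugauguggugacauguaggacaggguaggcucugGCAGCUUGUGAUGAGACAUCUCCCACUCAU
Mir677: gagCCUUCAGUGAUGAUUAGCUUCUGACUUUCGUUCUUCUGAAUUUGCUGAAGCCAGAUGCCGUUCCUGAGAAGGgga
Mir3069: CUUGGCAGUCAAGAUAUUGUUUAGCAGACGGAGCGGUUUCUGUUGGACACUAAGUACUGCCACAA
Mir1291: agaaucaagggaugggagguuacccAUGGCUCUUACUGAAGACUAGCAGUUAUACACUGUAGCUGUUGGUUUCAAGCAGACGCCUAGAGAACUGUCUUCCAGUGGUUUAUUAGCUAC
Mir664: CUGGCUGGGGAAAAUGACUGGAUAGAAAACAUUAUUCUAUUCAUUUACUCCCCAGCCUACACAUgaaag
Mir1839: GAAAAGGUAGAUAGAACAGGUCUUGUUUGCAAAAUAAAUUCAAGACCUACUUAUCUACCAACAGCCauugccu
Mir1843b: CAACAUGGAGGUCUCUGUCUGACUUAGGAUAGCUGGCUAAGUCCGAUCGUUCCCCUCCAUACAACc
Mir3068: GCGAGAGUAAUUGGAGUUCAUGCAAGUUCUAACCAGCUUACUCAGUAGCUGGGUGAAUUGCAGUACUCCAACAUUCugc
Mir3084-1: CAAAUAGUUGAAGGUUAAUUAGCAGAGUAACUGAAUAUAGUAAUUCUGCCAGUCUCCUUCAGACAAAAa
Mir6516: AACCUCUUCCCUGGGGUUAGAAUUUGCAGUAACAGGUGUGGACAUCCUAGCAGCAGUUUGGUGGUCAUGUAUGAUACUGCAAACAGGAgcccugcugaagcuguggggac

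The microRNA precursor genes that passed the test were all higher in Tert CreER/flox spermatogonia. Among the 84 genes, 5 (5.95%) passed an adjusted p of 0.05 in the authors' deposited table, against 5.36% of all rows in either direction. The 5 higher genes were Mir5121, Mir6236, Mir6240, Mir3069 and Mir677, and the share of all rows called higher was 1.94%. By the authors' DESeq2 Wald test, 0 members were called lower, against 3.42% of all rows. At an unadjusted p under 0.05 in the authors' deposited table, 15 members were higher and 3 lower, against 9.15% and 10.5% of all rows. The members' median log2 fold change was 0.08, 47 of them above 0 and 37 below, beside a median of 0.00 over all rows. They ranged from -1.30 (Mir467c) to 3.44 (Mir6240). When the deposited Wald score was referred to a t distribution (6 degrees of freedom), 0 members and 0 of all rows were called. Widening the null to the spread of the central scores left only Mir5121 called among the members.

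Most members had low mean counts and wide errors. The authors' deposited table holds no mean count under 10.4, and the members' median mean count was 33.7 against 192 for all rows. The median SE of the members was 0.43. Of the 26 members with a mean count up to 20, 0 were called in the authors' deposited table (DESeq2 Wald test, 2 at an unadjusted p under 0.05), with a median SE of 0.59, and 1.14% of all rows at those counts were called higher. Of the 46 between 20 and 100, 2 were called higher with a median SE of 0.37, against 0.642% of all rows in that range. Of the 12 above 100, 3 were called higher with a median SE of 0.27, against 2.62% of all rows. The 5 most abundant members were Mir6236 (mean count 4494), Mir5121 (4050), Mir3064 (519), Mir6904 (261) and Mir3068 (235) per the authors' deposited table.

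**Figure D1:**
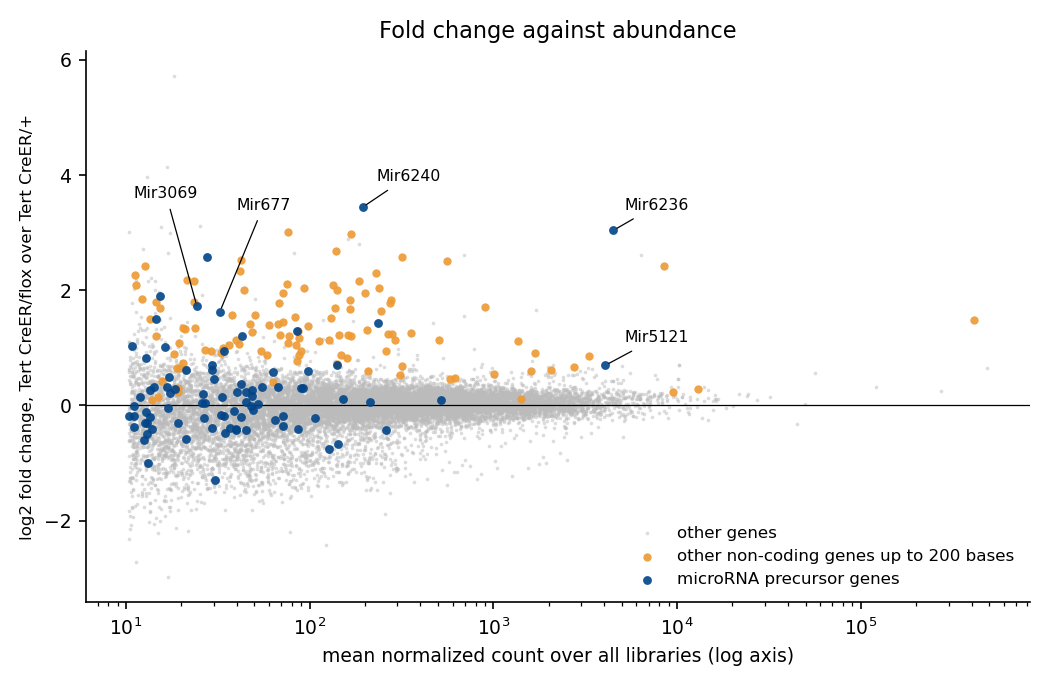
Log2 fold change of Tert CreER/flox over Tert CreER/+ against the mean normalized count over all libraries (log axis), 1 point per gene, from the authors' deposited table. Blue points are the 84 microRNA precursor genes with the 5 called ones named, orange points the 110 other non-coding genes up to 200 bases and grey points all other genes. Most blue points lie on both sides of 0 among the grey ones, while all orange points lie above 0.

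The members were next grouped by the annotated position of the hairpin. All 10 distinct members on a snoRNA or scaRNA were above 0 in the authors' deposited table, with log2 fold changes of 0.60 to 1.72 and a median of 1.25, which is 2.38-fold. Of these, 3 were called, against 1.94% of all rows called higher. All 10 had an unadjusted p under 0.05, against 9.15% of all rows higher. Without those 10 the other 74 members split into 37 above and 37 below 0, with a median of 0.01 and 2 called.

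**Figure D2:**
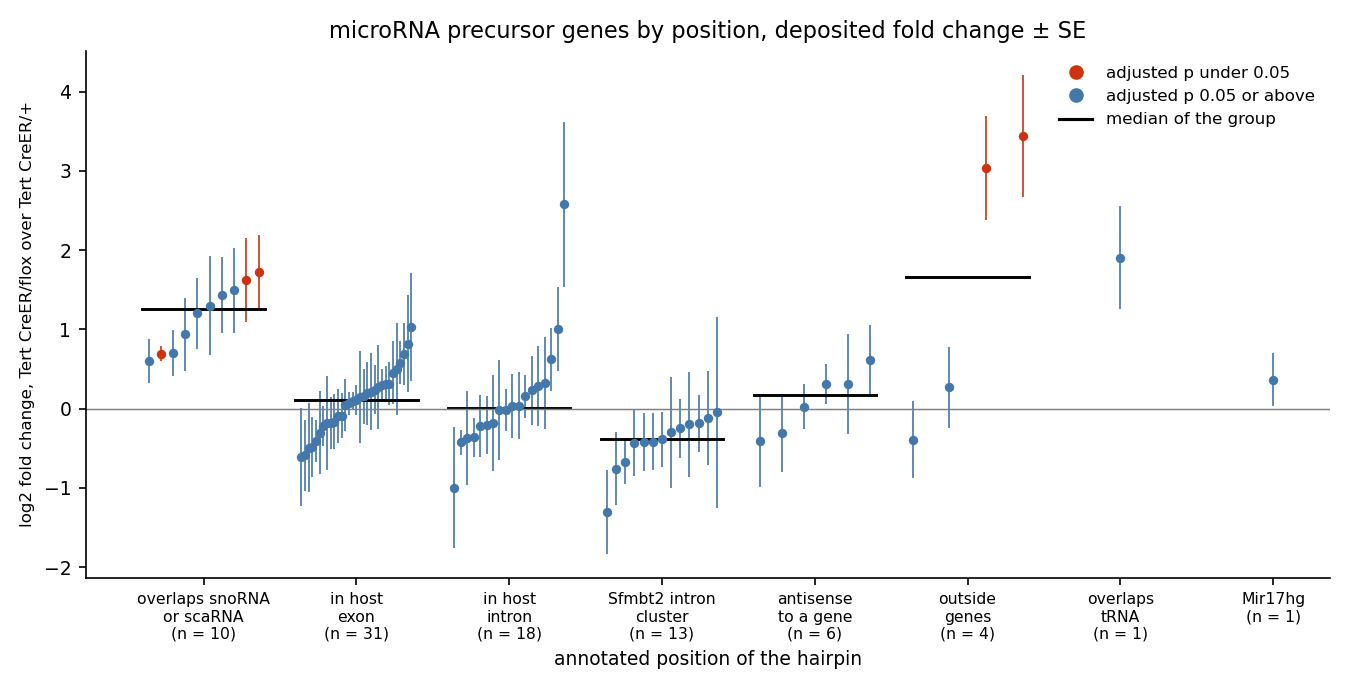
Log2 fold change of Tert CreER/flox over Tert CreER/+ (points) with its SE (bars) for each of the 84 genes, by the annotated position of the hairpin, from the authors' deposited table. Red points passed an adjusted p of 0.05, and black lines are medians of groups. The 10 genes on a snoRNA or scaRNA lie above 0 and the 13 of the Sfmbt2 intron below 0.

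Mir5121 had the smallest adjusted p of any member. Its hairpin lies at chr7:45126918-45126991 (GRCm38, minus strand) inside Rpl13a, a ribosomal protein gene whose introns carry snoRNAs, and 30 of its 74 bases belong to Snord33, a guide of ribosomal RNA methylation. All 74 bases also lie in exons of Rpl13a transcripts that GENCODE M21 annotates as retained introns, so Rpl13a reads could count for it as well. The annotated mature sequence lies within those 30 bases, as the capitals in the hairpin above show. In the authors' deposited table Mir5121 rose 1.62-fold (log2 fold change 0.69, SE 0.10, adjusted p 5.94e-09) at a mean count of 4050. Snord33 had 1.71 there (SE 0.60, adjusted p 0.0663) at a mean count of 905, and Rpl13a rose by 0.32 (SE 0.07, adjusted p 0.000712) at 13994. The point value of the precursor gene thus lay between those of its host and its snoRNA. The SE of Snord33 was 6.59 times the median of genes of like abundance, and its difference from Mir5121 was not tested. The sources used here do not give how reads over the shared bases were assigned.

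Mir3069 lies wholly within Scarna13, at chr12:105031077-105031141 (minus strand), in the non-coding host transcript Snhg10. The authors' deposited table gives it a 3.29-fold rise (1.72, SE 0.47, adjusted p 0.0112) at a mean count of 24.3. Scarna13 itself, with a mean count of 968, had 0.24 (SE 0.10, adjusted p 0.147) in the same authors' deposited table, and Snhg10 -0.46 (SE 0.53). The 95% interval of Mir3069 (1.96 SE to either side, 0.81 to 2.63) therefore holds the value of neither.

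Mir677, at chr10:128085286-128085363 (plus strand), is an intronic hairpin of Atp5b, which encodes the beta subunit of mitochondrial ATP synthase. Of its 78 bases, 72 are annotated as snoRNA. In the authors' deposited table it rose 3.08-fold (1.62, SE 0.52, adjusted p 0.0418) at a mean count of 32.4, while Atp5b had 0.13 (SE 0.07).

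The other members on a snoRNA or scaRNA were not called. Mir3068 came closest in the authors' deposited table, with 1.43 (SE 0.48, adjusted p 0.0522) at a mean count of 235. Mir1843b had 1.49 (SE 0.54, adjusted p 0.0764) there, and Scarna3a, which covers 65 of its 66 bases, rose by 1.22 (SE 0.28, adjusted p 0.00228). Mir1839 followed with 1.20 (SE 0.45, adjusted p 0.0868), and the lowest value of the class was that of Mir6516, 0.60 (SE 0.27), again from the authors' deposited table.

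Some of these genes had nearly the same fold change as their small RNA partner, and 2 of them nearly the same mean count. Mir1291 had a mean count of 140 and a log2 fold change of 0.70 in the authors' deposited table, beside 142 and 0.72 for Snora34. Mir664 had 34.3 and 0.94, beside 36.3 and 1.05 for Snora36b. Mir3084-1 and Mir3084-2 are copies with identical rows (85.1 and 1.30 in the authors' deposited table), and Snora19, which RefSeq places wholly within Mir3084-2, had a mean count of 23.7 and a log2 fold change of 1.34. Their fold changes were close, while their mean counts were not. Reads of a precursor and reads of the small RNA that shares its bases cannot be told apart in these rows.

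**Figure D3:**
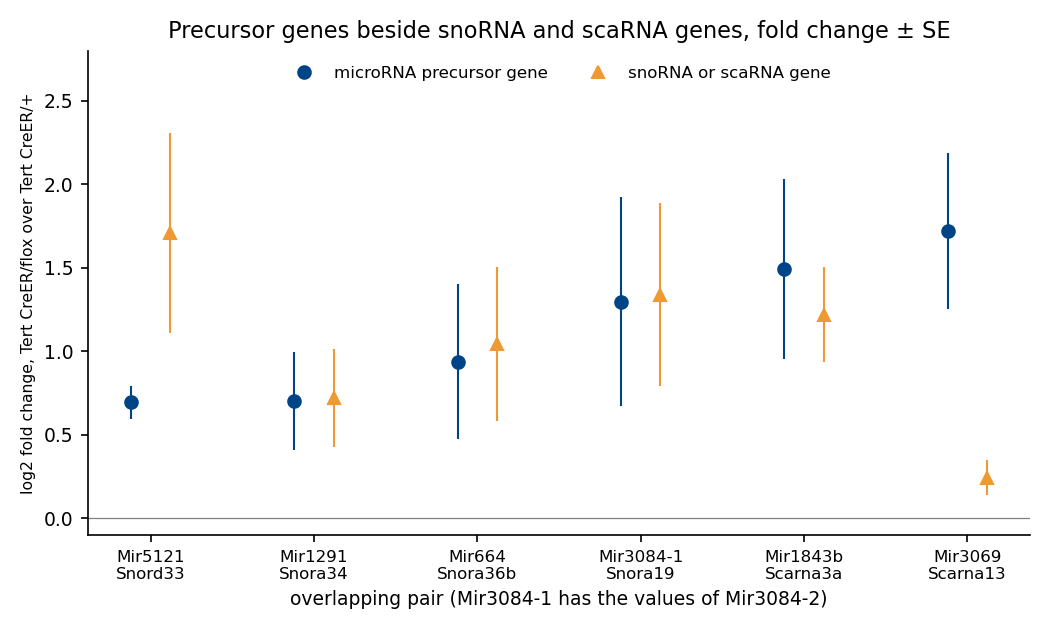
Log2 fold change of Tert CreER/flox over Tert CreER/+ with its SE for 6 microRNA precursor genes (circles) and the snoRNA or scaRNA gene that shares their bases (triangles), from the authors' deposited table. The pairs of Mir1291, Mir664, Mir3084 and Mir1843b lie within an SE of each other, whereas Mir5121 lies below Snord33 and Mir3069 above Scarna13.

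The same direction was found among short non-coding genes outside the member list. All 110 other non-coding genes of up to 200 bases were above 0 in the authors' deposited table, with a median log2 fold change of 1.24, and 41 of them (37.3%) were called higher. Of the 110, 96 were snoRNA genes (36 called, median 1.25) and 7 were scaRNA genes (2 called, median 1.05). A further 2 were annotated as miRNA genes under symbols outside the member rule (1 called). The median of 1.25 of the precursor genes on snoRNAs and scaRNAs equalled that of the snoRNA genes to 2 decimals. Snord33, Snora34, Snora36b, Snora19 and Scarna3a are among the 110 and share bases with members, so the groups are not wholly separate measurements. Hairpins of that class had a median GC content of 45.9% over 10, against 56.8% over 26 hairpins in host exons and 55.4% over 18 in host introns. The part of RNA length, GC content or library preparation in these differences was not tested.

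Mir6236 and Mir6240 had the largest folds of all members and the widest errors for their abundance. Both lie outside the genes of GENCODE M21 (RefSeq has a non-coding gene, Gm39429, around Mir6236), Mir6236 at chr9:110281287-110281409 (plus strand) and Mir6240 at chr5:114851948-114852064 (plus strand). That placement rests on position alone. Whether the 2 hairpins share sequence with RNAs encoded elsewhere, such as ribosomal RNA, was not tested. By the authors' deposited table Mir6236 rose 8.22-fold (3.04, SE 0.65, adjusted p 0.000884), with a 95% interval of 1.76 to 4.32 on the log2 scale. Mir6240 rose 10.9-fold (3.44, SE 0.77, adjusted p 0.00138) at a mean count of 194, per the authors' deposited table, with an interval of 1.93 to 4.95. The SE was 9.57 times the median of genes of like abundance for Mir6236 and 4.84 times for Mir6240, so the fitted spread between libraries was wide at both loci. Which libraries were high cannot be read from the table. The hairpin of Mir6240 is printed with its mature sequence in capitals, to show how much of the locus lies outside the microRNA.
Mir6240: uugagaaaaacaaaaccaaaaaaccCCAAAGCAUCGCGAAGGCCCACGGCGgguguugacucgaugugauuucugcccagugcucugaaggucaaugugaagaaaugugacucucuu

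Rn4.5s, a short repeated RNA gene that is no precursor, had a similar profile in the authors' deposited table, with 2.42 (SE 0.59, adjusted p 0.00403), a mean count of 8499 and an SE 8.72 times that of like genes. Mir1983, whose hairpin overlaps the isoleucine transfer RNA gene n-TItat14, had 1.90 (SE 0.65, adjusted p 0.0566) per the authors' deposited table at a mean count of 15.4. It did not pass the test.

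Hairpins in exons of host genes formed the largest group, without a called gene. Of the 31 such members, 29 in protein-coding hosts, 19 were above 0 and 12 below in the authors' deposited table. By its DESeq2 Wald test 0 of them were called, against 5.36% of all rows. An unadjusted p under 0.05 was found for 1, Mir207 (0.58, SE 0.27, adjusted p 0.204), against 9.15% of all rows higher and 10.5% lower. The median log2 fold change of the 31 was 0.11. The host gene's own value fell inside the 95% interval of the hairpin for 31 of 31 pairs, and the median absolute difference between hairpin and host was 0.24. Hosts had a median of 24.4 times the mean count of their hairpins, which are far shorter, so the intervals of the hairpins are wide. By the part of the gene, the median was 0.32 for the 7 hairpins in 5′ untranslated regions, -0.09 for the 9 in coding sequence, 0.10 for the 7 in 3′ untranslated regions and -0.01 for the 8 in exons of transcripts without coding sequence.

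**Figure D4:**
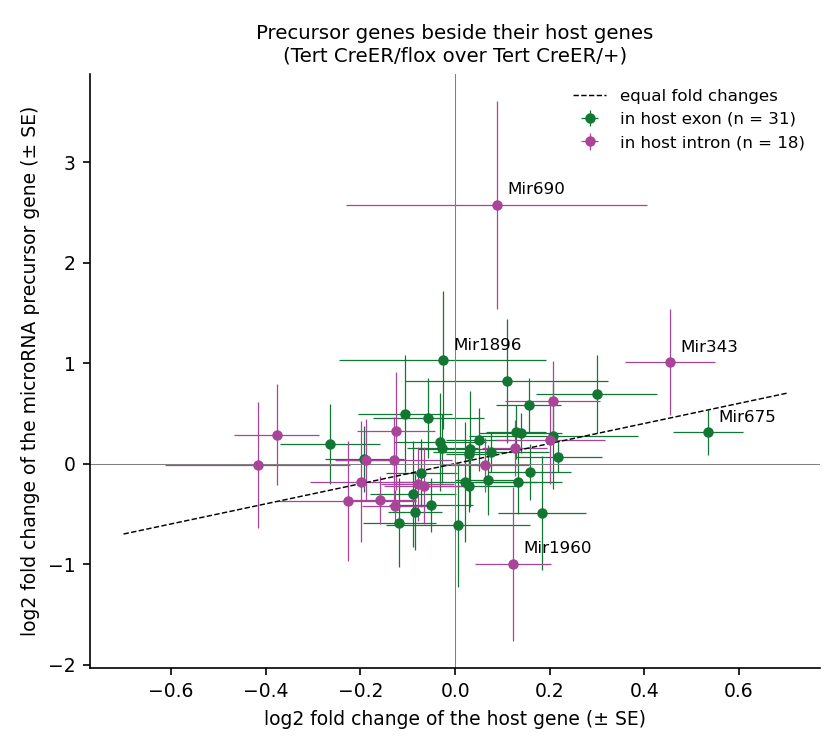
Log2 fold change of each microRNA precursor gene against that of its host gene, both Tert CreER/flox over Tert CreER/+ with SE bars, for 31 hairpins in exons (green) and 18 in introns outside the Sfmbt2 cluster (purple), from the authors' deposited table. The dashed line marks equal values, and Mir690 is the point whose 95% interval does not hold the value of its host.

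Mir675 is the best known of these genes. It is processed from an exon of H19, an imprinted non-coding RNA, and in the mouse placenta it restrains growth. The hairpin lies at chr7:142577064-142577147 (minus strand) and is shown with its mature sequences in capitals, because it shares every base with H19.
Mir675: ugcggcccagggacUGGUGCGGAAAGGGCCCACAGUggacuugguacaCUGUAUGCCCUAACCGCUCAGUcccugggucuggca
In the authors' deposited table H19 rose by 0.53 (SE 0.07, adjusted p 2.21e-09) at a mean count of 1899. Mir675 had 0.31 there (SE 0.22, adjusted p 0.469) at 91.8 and did not pass the test. H19 was the only called host among the 31. Mir3064, the most abundant exon hairpin, lies in the 3′ untranslated region of Ddx5, an RNA helicase that assists Drosha, and had 0.10 (SE 0.11) per the authors' deposited table beside 0.03 (SE 0.05) for Ddx5. Mir1306 lies in the coding sequence of Dgcr8, whose messenger RNA the Microprocessor itself cuts, and had 0.15 (SE 0.58) beside 0.03 (SE 0.11) for Dgcr8.

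Hairpins in introns outside the Sfmbt2 cluster numbered 18, with 9 above and 9 below 0 and a median of 0.01 in the authors' deposited table. By the DESeq2 Wald test 0 were called, against 5.36% of all rows. At an unadjusted p under 0.05 there was 1 higher and 1 lower, against 9.15% and 10.5% of all rows. In 14 of the 18 some bases of the hairpin also lay in an annotated exon of the host, and these split into 7 above and 7 below 0. Whether any of them is a mirtron was not tested. The host's value fell inside the hairpin's 95% interval for 17 of 18. The exception was Mir690, an intronic hairpin of Fgf12, for which the authors' deposited table gave 2.58 (SE 1.04, adjusted p 0.122), against 0.09 (SE 0.32) for Fgf12. Its SE was 2.58 times the median of genes of like abundance.

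Among members below 0, Mir6904 had the smallest p. It lies in an intron of Parp1, the poly(ADP-ribose) polymerase that senses DNA breaks, and had -0.42 (SE 0.16, adjusted p 0.0949) at a mean count of 261 per the authors' deposited table, beside -0.13 (SE 0.07) for Parp1. Called hosts were Ercc2, a helicase of DNA repair and transcription (0.45, SE 0.10, adjusted p 0.000563 as listed in the authors' deposited table), and Kif27, a kinesin (-0.38, SE 0.09, adjusted p 0.00325). Their hairpins did not pass, Mir343 in Ercc2 with 1.01 (SE 0.53) and Mir6369 in Kif27 with 0.29 (SE 0.50) per the authors' deposited table. Mir1960, in Hadhb, had the second lowest value of all members, -0.996 (SE 0.77), per the authors' deposited table.

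The largest cluster was that of the Mir466, Mir467 and Mir669 families in an intron of Sfmbt2 on chromosome 2, a rodent cluster in a gene that is imprinted in the mouse placenta. Its 13 distinct members were all below 0 in the authors' deposited table, with a median of -0.38 (0.766-fold) and a range of -1.30 to -0.04. The DESeq2 Wald test called 0 of them, against 3.42% of all rows called lower. Against 10.5% of all rows lower at an unadjusted p under 0.05, the cluster had 2. These were Mir467c (-1.30, SE 0.53, adjusted p 0.129, mean count 30.6) and Mir467a-1 (-0.68, SE 0.28, adjusted p 0.132, mean count 142), whose 95% intervals did not hold the value of the host. Sfmbt2 had -0.08 (SE 0.07, adjusted p 0.570) at a mean count of 1293 per the authors' deposited table, and the intervals of the other 11 held it.

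Members of this cluster are not independent of each other. Mir467a-2, Mir467a-4, Mir467a-5, Mir467a-7, Mir467a-8 and Mir467a-9 had identical rows (-0.76, SE 0.46, mean count 127 in the authors' deposited table). So did Mir467a-3, Mir467a-6 and Mir467a-10 (-0.43, SE 0.42, mean count 44.8), and the pairs Mir466b-4 with Mir466b-6 and Mir466b-5 with Mir466b-7. The copies lie in near-identical repeats of 1 host intron, so reads that map to several copies could enter more than 1 row, and the shared direction of 13 rows is not 13 separate measurements.

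**Figure D5:**
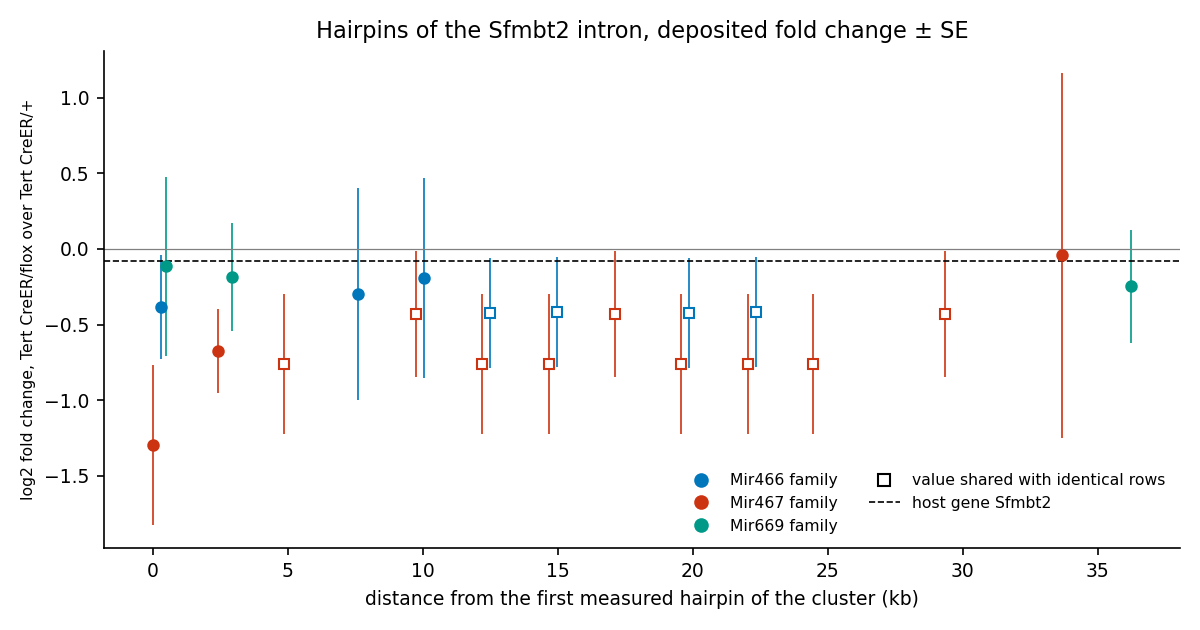
Log2 fold change of Tert CreER/flox over Tert CreER/+ with its SE for hairpins of the Sfmbt2 intron, by distance in kb from the first measured hairpin, from the authors' deposited table. Open squares share their value with identical rows and the dashed line is Sfmbt2 (-0.08). All hairpins lie below 0, Mir467c lowest at -1.30.

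The remaining positions held few genes. On the X chromosome, the Mir465 genes belong to a microRNA family known from mouse testis. Mir465b-1 and Mir465b-2 shared a value of -0.39 (SE 0.48) per the authors' deposited table, and Mir465c-1 and Mir465c-2 shared 0.27 (SE 0.51), so the genes of the shared seeds AUCAGGG and AUUUAGA lay on opposite sides of 0 within 1 SE of it. The genes of the third shared seed also lay within 1 SE of 0, Mir686 with 0.11 (SE 0.19) and Mir7231 with -0.37 (SE 0.60). Of the 6 hairpins antisense to a gene, 4 were above and 2 below 0, with a median of 0.17 in the authors' deposited table. By the DESeq2 Wald test 0 were called (0 at an unadjusted p under 0.05), against 5.36% of all rows. Mir17hg, the transcript of a cluster known to promote proliferation, had 0.37 (SE 0.34, adjusted p 0.602) at a mean count of 42.5.

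Several microRNA families with known roles in germ or stem cells had no row. The authors' deposited table held 0 of 51 annotated genes looked up. They were the let-7 family (11 genes), the hairpins of miR-17-92 and its paralogous clusters (15), miR-21 (3), miR-34 and miR-449 (6), miR-146 (2), miR-221 and miR-222 (2), miR-202 (1), miR-135a (2) and the embryonic miR-290-295 cluster (9). Their levels were not analysed here. RefSeq annotates 1228 mouse miRNA genes, of which 98 had a row, including Gm24148 under a predicted-gene name, which rose by 2.98 (SE 0.74, adjusted p 0.00464) per the authors' deposited table.

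The protein machinery of the pathway was described from a list of 35 genes. All of them were measured, and 0 were called higher and 1 lower in the authors' deposited table (2.86% against 5.36% of all rows), with a median log2 fold change of 0.01. At an unadjusted p under 0.05, 2 were higher and 4 lower, against 9.15% and 10.5% of all rows. Tnrc6c, a GW182 protein through which Argonaute silences its targets, fell by 0.40 (SE 0.10, adjusted p 0.00376) at a mean count of 2485. Its paralogs Tnrc6b and Tnrc6a had -0.18 (SE 0.08, adjusted p 0.190) and -0.17 (SE 0.07, adjusted p 0.122), neither of which passed, per the authors' deposited table. Nor did Dis3l2, the exonuclease that degrades uridylated let-7 precursors, with -0.37 (SE 0.15, adjusted p 0.139).

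The core nucleases were close to 0 with small errors in the authors' deposited table. Drosha had 0.04 (SE 0.07), its partner Dgcr8 0.03 (SE 0.11), the export receptor Xpo5 0.11 (SE 0.10) and Dicer1 0.06 (SE 0.08). Among the Argonautes, Ago1 had -0.13 (SE 0.12), Ago2 0.04 (SE 0.23), Ago3 0.00 (SE 0.15) and Ago4, a paralog that in the mouse acts in meiotic germ cells, -0.65 (SE 0.34, adjusted p 0.277) at a mean count of 38.7. The let-7 inhibitors Lin28a and Lin28b had -0.11 (SE 0.07) and 0.19 (SE 0.12) per the authors' deposited table. Unadjusted p-values under 0.05 on the higher side belonged to Ran, the GTPase that drives export by exportin 5, with 0.16 (SE 0.07, adjusted p 0.154), and Hnrnpa1, which binds the miR-18a hairpin, with 0.12 (SE 0.06, adjusted p 0.215).

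Markers of the sorted cells and of their neighbours give the setting of these values. The 11 markers of undifferentiated spermatogonia were all measured and 0 were called by the DESeq2 Wald test (2 at an unadjusted p under 0.05), with a median of -0.03 in the authors' deposited table. Markers of spermatids, the haploid cells, were all measured, and 13 of 13 were below 0 with a median of -1.09. Of these, 6 were called lower (46.2%, against 3.42% of all rows). The SE of the spermatid markers was 1.12 to 5.40 times the median of genes of like abundance. Their mean counts ran from 21.8 (Acrv1) to 1924 (Tnp1) per the authors' deposited table. The lowest mean count of any row there was 10.4, and a mean over all libraries does not show how much each sample held. Of 10 spermatocyte markers 2 were called lower, and 0 of 6 markers of differentiating spermatogonia were called (3 at an unadjusted p under 0.05). Of 8 Sertoli markers 6 were measured, 3 above and 3 below 0, and 1 was called by the DESeq2 Wald test. It was Trf, which was higher (0.62, SE 0.15, adjusted p 0.00255). Of 5 Leydig markers only Star had a row. In bulk samples, fewer cells of a type and less RNA per cell cannot be told apart. The part of spermatid RNA in the members' values was not tested.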

How the data were processed

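Libraries were made from column-purified, DNase-treated total RNA with a stranded low-input kit (SMARTer, Pico version), per the labels' protocols. DESeq2, Bowtie, Bowtie2 2.0.0-6, TopHat2 2.0.4 and Trim Galore, and the builds GRCm38 and mm10, are listed in the submitters' processing notes. The counting program, its strand setting, its annotation and the handling of multi-mapping reads were not given in the sources used here. For each Entrez gene the authors deposited a mean normalized count signal over all libraries, a log2 fold change with SE, a Wald score, and p-values raw and adjusted. The deposited score differed from fold change over SE by at most 2.58e-07, and the deposited p-values and adjusted p-values from a normal distribution and a Benjamini-Hochberg adjustment by at most 0.426% and 0.424%.

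No model was fitted, because values per library were not used here, and depth per library is therefore not given. The mean counts summed to 9627624. The deposited symbol was used where a row had one, and otherwise the symbol of RefSeq GRCm38.p6. Of the 14853 rows, 14828 matched a RefSeq gene and 138 were identical to another row. Because 0 of the 96 member rows carried a deposited symbol, all of them were named from RefSeq. Hairpin positions came from RefSeq and their contexts from GENCODE M21 on GRCm38. A hairpin was placed in an exon when at least 50% of its bases lay in an exon of a gene on its strand. The SE ratio is the SE over the median SE of the 200 rows nearest in mean count. Members, classes, lists and thresholds were chosen with earlier results of these data known. Genes named with full values were the called members, the 5 most abundant, the 3 highest and 3 lowest fold changes and the families listed, each with its host or overlapping gene. Steps were tested on simulated data and run with matplotlib 3.10.9, scipy 1.17.1, numpy 2.4.6 and pandas 2.3.3 under Python 3.11.15.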

Additional observations from a re-analysis of the deposited data

How the results depend on the processing

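Of the 84 members, the 5 called higher in the authors' deposited table became 3 at an adjusted p under 0.01 (0.579% of all rows were called higher) and 9 under 0.1 (3.73%), where 1 was also called lower (Mir6904, against 5.29%). Referring the Wald score to a t distribution with 6 degrees of freedom gave 0 higher (adjusted p 0.439 for each of the 5, and 0 of all 14853 rows called). A null width of 1.45 taken from the central scores of all rows gave 1, Mir5121 (adjusted p 0.00424), of 2 rows called higher among 14853. Leaving out members with any base on a small RNA or an exon, including the 14 intronic hairpins that touch one, gave 2 of 28, leaving out those with an SE over 1.5 times that of like rows gave 3 of 74, and leaving out those on a snoRNA or scaRNA, an alternative chosen after seeing the data, gave 2 of 74. The 1 pathway gene called, Tnrc6c, was lost under a minimum absolute log2 fold change of 1, the t distribution and the null width, each of which left 0. Counts of higher members stayed within 1.5 times the reported 5 under the minimum fold (4, against 0.458% of all rows), minimum mean counts of 20 (6, against 2.19%) and 100 (4, against 2.94%), centring (5, against 1.91%), adjustment over distinct rows (5, against 1.92%) and every row counted (5). The member lost under the minimum fold was Mir5121, so no member passed both that setting and the null width. The members' median of 0.08 was -0.19 for those 28 and 0.01 without those on a snoRNA or scaRNA. The 28 include the 13 members of the Sfmbt2 intron, all below 0 and not independent of each other. No paired analysis was possible because the table holds no values per library. For the same reason leaving out each replicate was not run, and taking symbols from the table alone left no member.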
